A study of Mus musculus with 4 samples.

Results

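Natural killer (NK) cells carry receptors that start an attack when they bind a ligand on a target cell, and most of these receptors cannot signal alone. They lean on small transmembrane adaptors whose tails hold immunoreceptor tyrosine-based activation motifs (ITAMs), which recruit the kinases Syk and Zap70 once phosphorylated, or a shorter motif that recruits PI3-kinase. Described here are 5 receptors (Ncr1, Cd226, Cd244, Cd160 and Fcgr3) and 5 adaptors (Tyrobp, Hcst, Fcer1g, Cd247 and Sh2d1b1). They were matched by gene name, and the choice of names was made with earlier results of these data known. Each of the 10 stood on a single row among the 37305 rows of the deposited table. All 10 were above 0 in every library and passed the filter for testing, a mean of at least 1 FPKM (fragments scaled to transcript length and library size).

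The cells were primary NK cells from spleens of C57BL/6 mice at postnatal day 56. They were first grown for 24 hours with 50 ng/ml of recombinant mouse IL-15. The DKK2 group (2 libraries) then received DKK2, a secreted protein that binds Wnt co-receptors, at 200 ng/ml for 24 hours, and the Control group (2 libraries) received mock treatment for the same time. Neither group carries a transgene or mutation in the labels, and nothing in the sources used here says whether the replicates came from separate animals or cultures, so p-values reflect only how far these libraries vary, which may be technical variation.

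Control replicate 1 stood apart from the other libraries. Of 57 tested markers of other cell types, 55 were lowest there, and the summed FPKM of 17 monocyte and macrophage markers was 858.2 and 611.1 in the DKK2 libraries, against 9.05 in Control replicate 1 and 387.9 in Control replicate 2. It was also the deepest library: the steps between low values put the others at 0.351 to 0.401 of its depth, provided that the authors scaled each library by itself. Read totals are not given in the file. On those steps the member with the fewest fragments had about 360 and 397 per kilobase in the DKK2 libraries and 1069 and 326 in the Control libraries, so the counting error of these genes is small. Summed NK cell markers were high throughout, with an FPKM of 36730 and 23910 in the DKK2 libraries and 27920 and 28580 in the Control libraries over 13 genes that are not among the 10. Most of each sum came from the granzyme genes Gzma and Gzmb. Gzma was at 24310 and 12090 FPKM in the DKK2 libraries, against 9890 and 13350 FPKM in the Control libraries. Gzmb was at 6895 and 6115 FPKM in the DKK2 libraries, against 11540 and 9908 FPKM in the Control libraries. In bulk RNA, fewer cells of a type and less RNA per cell cannot be told apart.

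The signalling motifs of the adaptors show what separates them, and their coding sequence is printed here for that reason. The sequences are from the principal transcripts of GENCODE M21 (build GRCm38), 5′ to 3′ on the coding strand, with the tyrosine codons in capitals. The ITAM was searched in the translated protein as a tyrosine followed 3 residues later by leucine or isoleucine, paired across a short spacer. The pairs found had 7 or 8 residues between them. Tyrobp and Fcer1g hold 1 such motif each, Cd247 holds 3, and Hcst holds a single tyrosine motif of the kind that binds PI3-kinase.
Tyrobp ITAM: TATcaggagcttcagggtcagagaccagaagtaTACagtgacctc
Fcer1g ITAM: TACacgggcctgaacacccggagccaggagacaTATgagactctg
Cd247 ITAM 1: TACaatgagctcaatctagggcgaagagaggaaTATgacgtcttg
Cd247 ITAM 2: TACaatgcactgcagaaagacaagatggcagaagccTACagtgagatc
Cd247 ITAM 3: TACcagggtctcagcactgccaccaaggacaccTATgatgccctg
Hcst PI3-kinase motif: TACatcaacatg
Tyrobp and Hcst lie on chromosome 7, and Fcer1g and Cd247 on chromosome 1. The Fcer1g motif was identical to the third Cd247 motif at 29 of 45 bases (64.4%) and to the Tyrobp motif at 19 of 45 (42.2%). The proteins are short, at 79 residues for Hcst, 86 for Fcer1g, 114 for Tyrobp and 164 for Cd247.

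The adaptor transcripts spanned a wide range of levels. FPKM is scaled to length, so genes can be compared roughly, within the limits of shared and antisense sequence given below. Tyrobp averaged 1645 FPKM over the 4 libraries and Fcer1g 1281, and both were above the 99th percentile of the 12275 genes tested in every library. Next came Ncr1 at 270.5 FPKM, then Cd244 (94.27), Cd247 (86.05), Hcst (85.16) and Fcgr3 (63.79), then Sh2d1b1 (29.41), Cd160 (24.36) and Cd226 (22.17). Tyrobp and Fcer1g overlapped in their ranges over the libraries, as did each neighbouring pair from Cd244 to Fcgr3 and from Sh2d1b1 to Cd226. The ranges did not overlap between Fcer1g and Ncr1, between Ncr1 and Cd244 or between Fcgr3 and Sh2d1b1. The most abundant adaptors were thus the single-ITAM chains printed above, and the PI3-kinase adaptor Hcst was lower than Tyrobp by a ratio of 19.8 and 18 in the DKK2 libraries and 18.5 and 23 in the Control libraries.

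**Figure D1:**
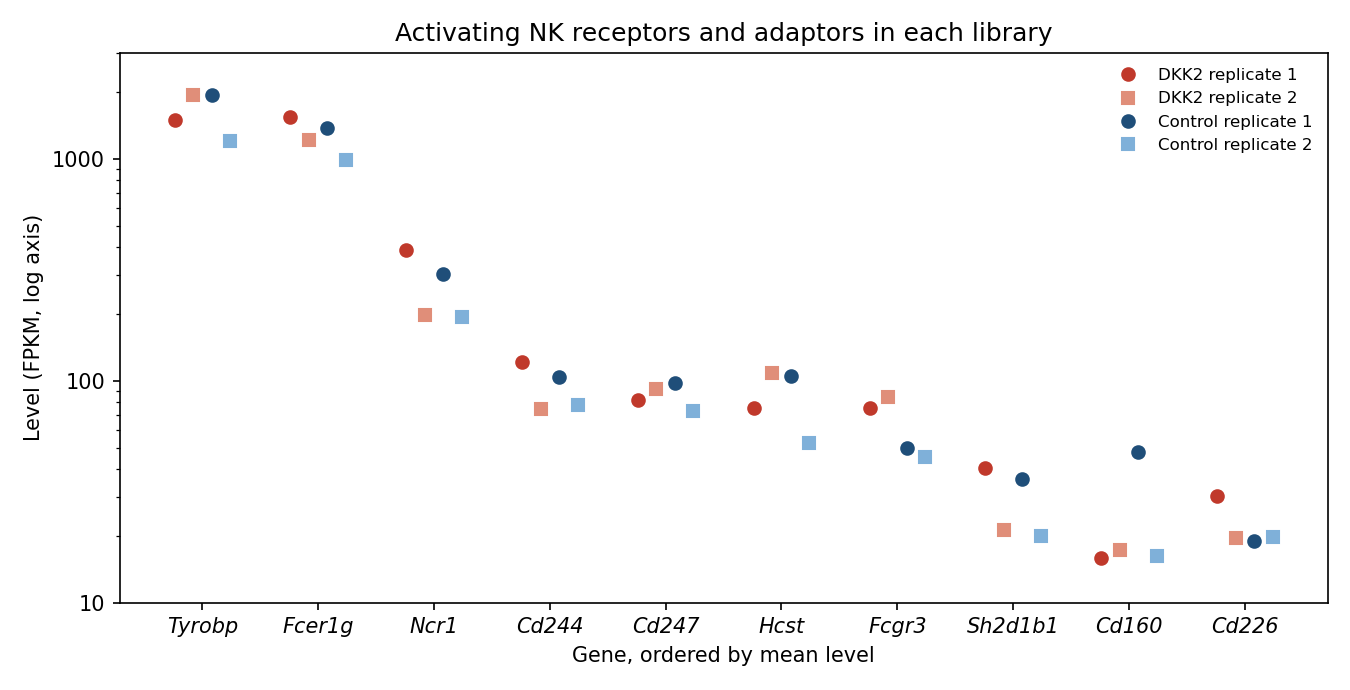
Level of each gene in each library, in FPKM on a log axis, with genes ordered by their mean and each point 1 library (red, DKK2; blue, Control). Tyrobp and Fcer1g lie above the other 8 genes in every library, and only Fcgr3 has both DKK2 points above both Control points.

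No member passed limma with Benjamini-Hochberg adjustment over all 12275 genes (0 of 10, adjusted p = 1 for each, against 0.0326% of all genes called). At an unadjusted p under 0.05, limma counted 1 member, Fcgr3, where 1.84% of all genes were counted. In the mean 9 members were higher with DKK2 and 1, Cd160, was lower, with a median log2 fold change of 0.18, beside -0.05 over all genes tested, of which 43.6% were higher. The lower DKK2 library exceeded the higher Control library in 1 of 10 members (11.8% of all genes), and the higher DKK2 library was under the lower Control library in 0 of 10 (14.8% of all genes). Scaling the libraries to the same median put the share of all non-overlapping genes that were higher with DKK2 at 55.1%, against 44.3% as deposited. For 9 of the 10 members the gap between replicates of at least 1 group was larger than the difference between the group means.

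The count of higher members rested on Control replicate 2, which was the lowest library for 7 of the 10 genes and the highest for 0. Without it, 2 members were higher with DKK2 and 8 were lower, and without Control replicate 1 all 10 were higher. Against Control replicate 2, 9 members were higher in DKK2 replicate 1 and 8 in DKK2 replicate 2. Against Control replicate 1, 6 were higher in DKK2 replicate 1 and only 3 in DKK2 replicate 2.

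**Figure D2:**
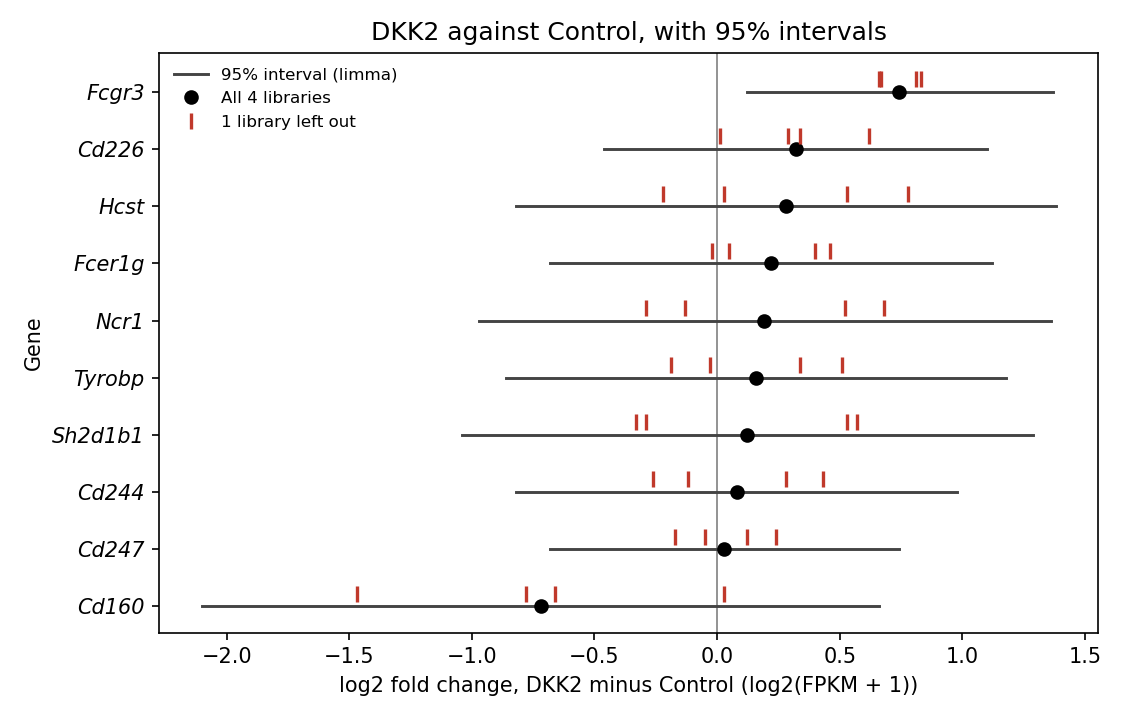
Log2 fold change (DKK2 minus Control, log2(FPKM + 1) scale) of each gene with its 95% interval from limma, and the same value with each library left out in turn (red ticks). The interval of Fcgr3, 0.12 to 1.37 before adjustment, is the only one that excludes 0, and the red ticks lie on both sides of 0 for 8 of the 10 genes.

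Fcgr3 encodes CD16, the low-affinity IgG receptor through which NK cells recognise antibody-coated targets, and in the mouse it signals through Fcer1g. Its level was 75.38 and 84.85 FPKM in the DKK2 libraries, against 49.79 and 45.16 FPKM in the Control libraries. The groups did not overlap, and the replicates of each group lay close together. The log2 fold change was 0.74 ± 0.24 (SE, n = 2 libraries per group), a fold of 1.67 on the FPKM + 1 scale, with a limma unadjusted p = 0.029 and adjusted p = 1. With each library left out in turn it ranged from 0.66 to 0.83.

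Monocytes and macrophages also express Fcgr3, and markers of these cells were also higher with DKK2 in the mean. This held for all 15 markers tested, and for 12 of the 15 the groups did not overlap, against 11.8% of all genes tested with both DKK2 libraries above. Lyz2, which encodes lysozyme, had 552.3 and 208.5 FPKM in the DKK2 libraries, and 0.889 and 141.5 FPKM in the Control libraries. Mpeg1, which encodes a pore-forming protein, had 82.93 and 103.9 FPKM in the DKK2 libraries, and 0.123 and 72.21 FPKM in the Control libraries. Lyz2 was thus most of the 858.2 FPKM summed in DKK2 replicate 1, and the markers differed in which DKK2 library was higher. In Control replicate 1, 3 of the 17 markers were listed at 0, among them C1qa and C1qc. Cd68, a lysosomal protein, was the highest of them there at 6.86 FPKM, and Csf1r, the growth factor receptor of macrophages, was at 0.0742 FPKM. Fcgr3 was at 49.79 FPKM in that library. Control replicate 2 had 387.9 FPKM of summed monocyte and macrophage markers and 45.16 FPKM of Fcgr3. The part of these cells in the difference between the groups was not tested. Neutrophils, mast cells and basophils express Fcgr3 too. Summed neutrophil markers, led by the calprotectin genes S100a8 and S100a9, were at 3550 and 132.3 FPKM in the DKK2 libraries and at 1.09 and 68.81 FPKM in the Control libraries. All 10 tested were higher without overlap (11.8% of all genes), and 6 were listed at 0 in Control replicate 1. Mast cell and basophil markers, among them the proteases Mcpt8 and Prss34, summed to 199.4 and 288.5 FPKM in the DKK2 libraries and 4.09 and 213 FPKM in the Control libraries. All 6 were higher in the mean, 2 of them without overlap (11.8% of all genes), and 2 were listed at 0 in Control replicate 1. Their part in the Fcgr3 difference was not tested either. Other Fc receptors, which in the spleen belong mainly to myeloid cells, B cells and basophils, were near 0 in Control replicate 1. Fcgr4 was at 24.69 and 25.52 FPKM under DKK2, against 0.0312 and 16.06 FPKM in the Control libraries, and Fcgr1 had 13.66 and 20.55 FPKM in the DKK2 libraries and 0.0318 and 11.22 FPKM in the Control libraries. Of 5 such receptors tested, 5 were higher in the mean (median log2 fold change 1.98) and 0 passed limma. Among them, Fcgr1 and Fcgr4 were already counted as monocyte and macrophage markers, and Fcer1a and Ms4a2 as mast cell and basophil markers.

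Fcgr3 also shares sequence with Fcgr2b, the inhibitory IgG receptor: 10.2% of the 50-base windows of its GENCODE transcripts occur in Fcgr2b transcripts. Fcgr2b was at 10.03 and 23.67 FPKM in the DKK2 libraries and at 0.418 and 15.87 FPKM in the Control libraries. The sources used here do not say how multiply mapped fragments were shared, so the Fcgr3 values carry that uncertainty. Fcgr2b was lower than Fcgr3 in each of the 4 libraries.

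**Figure D3:**
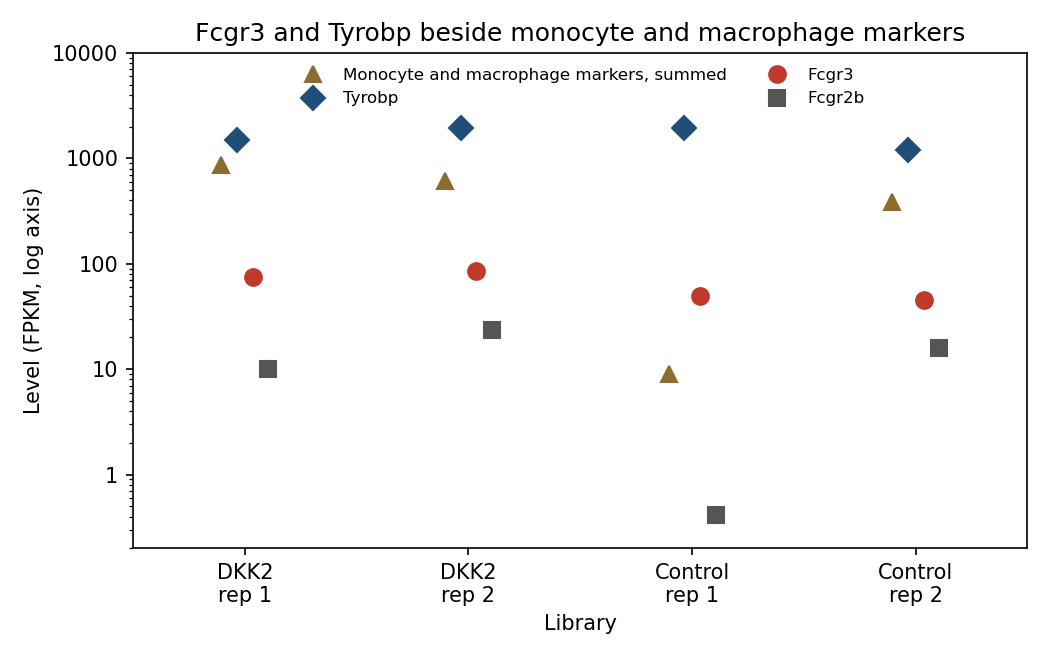
Levels of Tyrobp, Fcgr3 and Fcgr2b and the summed level of 17 monocyte and macrophage markers in each library, in FPKM on a log axis, each point 1 library. Lyz2 alone gives 552.3 FPKM of the sum in DKK2 replicate 1 and 208.5 FPKM in DKK2 replicate 2. In Control replicate 1 the summed markers are at 9.05 FPKM and Fcgr2b at 0.418 FPKM, while Fcgr3 is at 49.79 FPKM and Tyrobp at 1948 FPKM.

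Ncr1 encodes NKp46, an activating receptor used to define NK cells, which pairs with Fcer1g and Cd247. Its level was 388.6 and 197.2 FPKM in the DKK2 libraries, against 303.4 and 192.8 FPKM in the Control libraries. The groups overlapped, and in each group replicate 1 was well above replicate 2. The log2 fold change was 0.19 ± 0.45 (95% interval -0.97 to 1.36), smaller than the gaps between replicates of 0.97 with DKK2 and 0.65 in the controls. It turned to -0.29 without DKK2 replicate 1 and to -0.13 without Control replicate 2.

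Sh2d1b1 encodes EAT-2, an SH2 adaptor that carries signals from receptors of the SLAM family. Its library profile was the closest to that of Ncr1 among the 10, with a mean absolute difference of 0.06 in centred log2 values over the 4 libraries. It was at 40.42 and 21.21 FPKM under DKK2, against 35.99 and 20 FPKM in the Control libraries (log2 fold change 0.12 ± 0.45). Here too both replicate 1 libraries were high and both replicate 2 libraries low, and the sign turned without DKK2 replicate 1 (-0.33) or Control replicate 2 (-0.29). Of its 50-base windows, 13.4% occur in the neighbouring paralog Sh2d1b2, also an SH2 adaptor of the same family. Sh2d1b2 did not share the profile, at 8.83 and 10.26 FPKM under DKK2 against 19.76 and 12.28 FPKM in the Control libraries (log2 fold change -0.66 ± 0.32, limma adjusted p = 1). Fragments that fit both genes could be placed with either.

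Cd244 encodes 2B4, the SLAM family receptor for CD48, which signals through EAT-2 and the related adaptor SAP. It was at 121.1 and 74.68 FPKM in the DKK2 libraries, against 103.4 and 77.95 FPKM in the Control libraries. DKK2 replicate 1 was the highest library and DKK2 replicate 2 the lowest, so the Control values lay between them. The log2 fold change was 0.08 ± 0.35, and it turned to -0.26 without DKK2 replicate 1 and to -0.12 without Control replicate 2. The ratio of Cd244 to Sh2d1b1 within a library was 3 and 3.52 with DKK2 and 2.87 and 3.9 in the Control libraries.

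The rest of this receptor family and its adaptors, 7 tested genes, had 6 higher and 1 lower in the mean with DKK2 and a median log2 fold change of 0.30, with 0 past limma. Sh2d1a, which encodes SAP, was at 216 and 110.7 FPKM under DKK2, against 102.2 and 89.41 FPKM in the Control libraries (0.69 ± 0.39, limma adjusted p = 1). Slamf6, a receptor of the family also found on T cells, was at 17.08 and 15.12 FPKM in the DKK2 libraries, against 4.90 and 11.94 FPKM in the Control libraries (0.97 ± 0.44, limma adjusted p = 1). The ligand gene Cd48 was at 255.1 and 160.1 FPKM in the DKK2 libraries, against 162.3 and 164.8 FPKM in the Control libraries. Summed markers of T cells, which also use SAP, were at 251.6 and 214.4 FPKM in the DKK2 libraries and 67.15 and 164.9 FPKM in the Control libraries, and their part in these values was not tested.

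Fcer1g encodes the Fc receptor gamma chain, the adaptor with the single ITAM printed above that serves CD16 and NKp46. It was at 1540 and 1211 FPKM in the DKK2 libraries, against 1381 and 992.3 FPKM in the Control libraries (log2 fold change 0.22 ± 0.35). The groups overlapped, with the libraries in the same order as for Ncr1. Without Control replicate 2 the difference was -0.02. The ratio of Fcer1g to Fcgr3 was 20.4 and 14.3 with DKK2 and 27.7 and 22 in the Control libraries, so the adaptor stayed far more abundant than the CD16 transcript in each library.

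Tyrobp encodes DAP12, the ITAM adaptor of activating Ly49 receptors. Its level was 1496 and 1939 FPKM in the DKK2 libraries, against 1948 and 1198 FPKM in the Control libraries. The Control libraries were the highest and the lowest of the 4, so the DKK2 values lay between them (log2 fold change 0.16 ± 0.40). Myeloid cells use Tyrobp too. Summed monocyte and macrophage markers were at 611.1 FPKM in DKK2 replicate 2 and 9.05 FPKM in Control replicate 1, the libraries whose Tyrobp levels were nearly equal, and their part in the Tyrobp values was not tested. Of 5 tested genes on a list drawn up as myeloid receptors that pair with DAP12, 5 were higher in the mean with DKK2 (median log2 fold change 1.20) and 0 passed limma. The adaptor and cell type of each listed receptor were not tested. Trem2, on macrophages, was at 3.17 and 1.68 FPKM under DKK2, against a listed 0 and 0.33 FPKM in the Control libraries. Clec5a was at 4.54 and 5.30 FPKM in the DKK2 libraries and at 0.0325 and 3.34 FPKM in the Control libraries. Pilrb1, the most abundant of them, differed little, at 24.09 and 27.17 FPKM in the DKK2 libraries against 22.13 and 26.72 FPKM in the Control libraries.

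Hcst encodes DAP10, the adaptor of NKG2D, and its gene lies beside Tyrobp. It was at 75.62 and 107.8 FPKM in the DKK2 libraries, against 105.1 and 52.19 FPKM in the Control libraries (log2 fold change 0.28 ± 0.43). As for Tyrobp, DKK2 replicate 2 and Control replicate 1 were high and Control replicate 2 was lowest. The profiles of this pair differed by a mean of 0.107 in centred log2 values, the second closest pair among the 10. Without Control replicate 2 the fold change was -0.22 for Hcst and -0.19 for Tyrobp.

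Cd247 encodes the zeta chain, the adaptor with 3 ITAMs that serves NKp46 in NK cells and the antigen receptor in T cells. Its level was 81.57 and 91.74 FPKM in the DKK2 libraries, against 97.65 and 73.23 FPKM in the Control libraries. It had the smallest range over the libraries of the 10 genes, 0.41 on the log2 scale, and a log2 fold change of 0.03 ± 0.27 (95% interval -0.68 to 0.74). Cd247 was highest in Control replicate 1, where summed T cell markers were lowest and Cd3g, a chain of the T cell receptor complex, was at 23.1 FPKM. Of 8 tested T cell markers, 7 were higher in the mean with DKK2 and 1, Cd28, was lower. Cd28 was at 21.22 and 28.75 FPKM in the DKK2 libraries, against 37.45 and 32.9 FPKM in the Control libraries. Of the 50-base windows of the annotated Cd247 transcripts, 60.8% lie antisense to transcripts of Pou2f1, and the sources used here do not say whether counting used strand. Pou2f1 was at 3.12 and 3.96 FPKM under DKK2 and had 4.597 and 4.89 FPKM in the Control libraries.

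**Figure D4:**
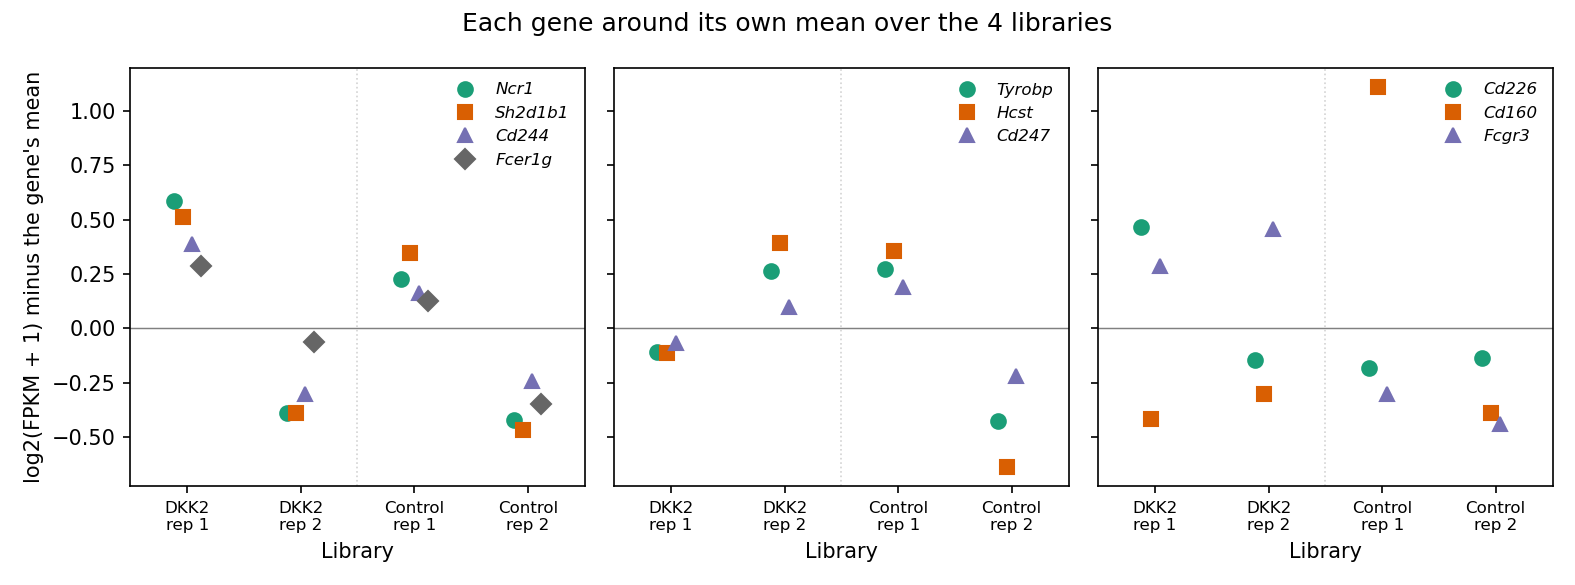
Each gene's log2(FPKM + 1) minus its own mean over the 4 libraries, by library, in panels grouped after the values were seen. In the left panel both replicate 1 libraries are above both replicate 2 libraries, in the middle panel DKK2 replicate 2 and Control replicate 1 are highest, and on the right Fcgr3 separates the groups while Cd160 is high in Control replicate 1.

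Cd226 encodes DNAM-1, the receptor for the nectin-family ligands Pvr and Nectin2, for which Tigit and Cd96 compete. It was at 30.38 and 19.56 FPKM in the DKK2 libraries, against 19.03 and 19.71 FPKM in the Control libraries. A single library, DKK2 replicate 1, was high, and the other 3 lay close to each other. The log2 fold change of 0.32 ± 0.30 was 0.01 without DKK2 replicate 1. Its competitor Tigit was at 81.53 and 120.9 FPKM under DKK2, against 170.2 and 72.93 FPKM in the Control libraries (-0.17 ± 0.49).

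Cd160 encodes a lipid-anchored receptor for HVEM, the product of Tnfrsf14. It was at 15.95 and 17.33 FPKM in the DKK2 libraries, against 47.91 and 16.27 FPKM in the Control libraries. Control replicate 1 alone was high, and the other Control library lay between the DKK2 libraries. The log2 fold change was -0.72 ± 0.53 with all libraries and 0.03 without Control replicate 1, so the mean difference rested on that library. Of 57 tested markers of other cells, 55 were lowest there, and their part in the Cd160 difference was not tested. Tnfrsf14 was at 9.11 and 23.04 FPKM under DKK2, against 11.49 and 11.46 FPKM in the Control libraries (0.32 ± 0.46). Of 6 tested genes on a list drawn up as partners and competitors of Cd226 and Cd160, 4 were higher and 2 lower in the mean (median 0.20), with 0 past limma. The higher ones include Lgals9 and Cd200r1, which are neither ligands nor competitors of either receptor. Of the rest, Tnfrsf14 and Cd96 (0.26) were higher, and Tigit (-0.17) and Pvr (-0.16) were lower. Lgals9, which encodes galectin-9, was at 111.2 and 164.2 FPKM in the DKK2 libraries and at 130.6 and 115.1 FPKM in the Control libraries. Cd200r1, an inhibitory receptor, was at 4.03 and 1.99 FPKM in the DKK2 libraries and at 1.67 and 2.68 FPKM in the Control libraries.

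Other activating and costimulatory receptors were split, with 11 of 20 higher and 9 lower in the mean with DKK2, a median of 0.08 and 0 past limma. Klrk1, the NKG2D receptor that Hcst serves, was at 613.2 and 509 FPKM under DKK2, against 570.1 and 489.2 FPKM in the Control libraries (0.08 ± 0.29). Klra8, the activating receptor Ly49H that pairs with Tyrobp, was at 187 and 97.5 FPKM in the DKK2 libraries, against 95.42 and 79.1 FPKM in the Control libraries (0.63 ± 0.39, limma adjusted p = 1). Ly49 genes have near-identical copies, so the value of Klra8 is uncertain. Tnfrsf9, the costimulatory receptor 4-1BB, was at 420.3 and 637 FPKM in the DKK2 libraries, against 456.3 and 640.3 FPKM in the Control libraries.

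Downstream of the adaptors, 11 of 27 kinases, scaffolds and exchange factors were higher and 16 lower in the mean with DKK2 (median -0.06, 0 past limma). Syk is not among them, because no deposited row carried that name. Lck, a Src-family kinase that phosphorylates ITAMs, was at 176.5 and 309.6 FPKM under DKK2, against 384.9 and 193.7 FPKM in the Control libraries. Lcp2, the scaffold SLP-76, was at 210.4 and 253.6 FPKM in the DKK2 libraries, against 340.1 and 164.6 FPKM in the Control libraries. Both were highest in Control replicate 1. Fyb, the adaptor ADAP, was at 182.2 and 145.2 FPKM in the DKK2 libraries, against 79.73 and 122.8 FPKM in the Control libraries (0.71 ± 0.33, limma adjusted p = 1). Plcg1, a phospholipase C, was at 1.21 and 2.37 FPKM under DKK2, and at 0.249 and 1.61 FPKM in the Control libraries (0.60 ± 0.53). Inhibitors of ITAM signalling were lower in 12 of 15 cases and higher in 3 (median -0.38, 0 past limma). Over all 12275 genes tested, 6918 were lower. Without overlap, 2 of the 15 were lower (14.8% of all genes) and 1 was higher (11.8% of all genes). The adaptor Dok2 was at 178.5 and 204.5 FPKM under DKK2, against 411.8 and 195.9 FPKM in the Control libraries (-0.57 ± 0.43). The ubiquitin ligase gene Cbl was at 13.18 and 42.31 FPKM in the DKK2 libraries, against 49.87 and 27.18 FPKM in the Control libraries (-0.61 ± 0.63). For both genes Control replicate 1 was the highest library, as it was for most of the inhibitors that were lower in the mean. Ptpn22, a phosphatase of Src-family kinases, was at 359.4 and 174.3 FPKM in the DKK2 libraries, with 185.9 and 169.2 FPKM in the Control libraries (0.49 ± 0.42).

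Over the whole table the genes most like Tyrobp in profile were Atox1, Ccdc97 and Fxyd5, with mean absolute differences of 0.014, 0.014 and 0.02 in centred log2 values over the 4 libraries. Fxyd5 was at 1432 and 1877 FPKM under DKK2, against 1886 and 1198 FPKM in the Control libraries. The genes most like Ncr1 were Lars2, Ndufb2 and Rps27a, with differences of 0.033, 0.038 and 0.046. Profiles over 4 libraries are seldom distinctive: 188 genes lay within 0.1 of Tyrobp and 34 within 0.1 of Ncr1.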

How the data were processed

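The 4 libraries were made with a strand-specific total RNA kit, per the labels' protocols. The authors deposited 1 table of FPKM values per gene symbol, per the file headers, though the file is named for RPKM and the design written at the start allowed for either. Tools named in the submitters' processing notes, with no role given, are TopHat2 2.1.0, Cuffdiff 2.1.0, CASAVA and edgeR, with mouse build mm9. The annotation, strand setting and handling of multiply mapped fragments are not given in the sources used here. Each of the 4 value columns matched a sample by name. No count model was applied, because FPKM does not hold read counts.

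Values were taken as log2(FPKM + 1), which understates the change of low genes. Genes averaging 1 FPKM or more (12275) were fitted in R 4.3.3 with limma 3.58.1 (lmFit, eBayes with a trend), two-sided, with Benjamini-Hochberg adjustment and a threshold of 0.05. The fit was also run on simulated data with independent errors. Those held no shift of a whole library, so that run cannot tell how the fit behaves with a library like Control replicate 1. An exact permutation test of 2 libraries against 2 cannot go below p = 0.333. Fold changes are DKK2 minus Control, with their moderated standard errors (SE). Shared 50-base windows and motifs come from GENCODE M21 transcripts (GRCm38). That build differs from the authors', so no coordinates are printed.

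The members and gene lists were chosen with earlier results of these data known. From each pathway list, and from the marker lists set beside a result, the text names the most abundant genes and those with the largest fold change, 2 of each (for some marker lists only part of these). Sh2d1b2, Fcgr2b and Pou2f1 are named for shared sequence. C1qa, C1qc, Cd68, Csf1r, Cd4, Cd8a, Cd8b1, Cd96 and Pvr were picked after their values were seen. Alternatives covered scaling, pseudocount, filter, variance trend, replicate block, protein-coding genes alone and each library left out.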

Additional observations from a re-analysis of the deposited data

How the results depend on the processing

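Under the 8 alternatives that kept all 4 libraries, each of the 10 members kept its direction and stayed short of the threshold in limma (80 of 80 values, lowest adjusted p = 0.92). Only the changes of scaling and pseudocount could turn a direction. The filters, variance trend, replicate block and protein-coding subset leave each fold change as it was. Leaving out 1 library turned 13 of 40 values. Without Control replicate 1, Cd160 was at 0.03. Without Control replicate 2, Ncr1 was at -0.13, Cd244 at -0.12, Tyrobp at -0.19, Hcst at -0.22, Fcer1g at -0.02, Cd247 at -0.17 and Sh2d1b1 at -0.29. Without DKK2 replicate 1, Ncr1 was at -0.29, Cd244 at -0.26 and Sh2d1b1 at -0.33. Without DKK2 replicate 2, Tyrobp was at -0.03 and Cd247 at -0.05. The cause was not tested. Over the 4 fits that left out a library, the range was -0.29 to 0.68 for Ncr1, -0.26 to 0.43 for Cd244, -1.47 to 0.03 for Cd160, -0.19 to 0.51 for Tyrobp, -0.22 to 0.78 for Hcst, -0.02 to 0.46 for Fcer1g, -0.17 to 0.24 for Cd247 and -0.33 to 0.57 for Sh2d1b1. With a library left out, the lowest adjusted p of a member was 0.6, and the median over the members ranged from -0.15 to 0.48.

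Limma called 4 of all genes tested, 0 of them members. It called 0 with no filter on low values (949 at an unadjusted p under 0.05), 0 among protein-coding genes alone (198) and 0 whichever library was omitted (150 to 855). With the replicate number as a block it called 8, and no member changed its call. Replicates of the same number did not deviate together over the genes tested as a whole (correlation 0.01). That value cannot tell whether they shared an animal or culture. With 2 libraries per group, the median SE was 0.37 for the members and 0.33 over all genes, on the log2 scale. Read totals are not given, so depth could be judged only from the steps between low values.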
